A study of Mus musculus with 14 samples.

Results

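The 7 libraries described here are those the labels title WT, the wild-type (WT) ileum mucosa of mice on a high-fat diet (HFD). They were chosen by their column names, and they are 7 of the 14 libraries of the series. The other 7 come from mice without NCoR1 in the intestinal epithelium and were not read for any value below. WT mice carried loxP-flanked Ncor1 alleles (NCoR1 flox/flox) without Cre recombinase, so they are floxed controls and not mice of an unmodified strain. They were male, were 7 to 8 weeks old when the diet began and had eaten it for 15 weeks, and the diet took 60% of its energy from fat. The study lists C57 BL 6/J mice among its animals, but does not state the strain background of the floxed line. Each library came from the scraped ileal mucosa of 1 mouse. The labels call the material intestinal epithelial cells, but a scraping also holds immune cells and connective tissue, and the markers of both were measured below.

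The ileum is the last segment of the small intestine. Its enterocytes finish the uptake of fat, sugar and peptides through a brush border of microvilli, and they take bile acids back from the gut lumen for return to the liver. Goblet cells cover the surface with mucus, Paneth cells at the crypt base secrete antimicrobial peptides, and enteroendocrine cells release hormones. Below the epithelium, plasma cells make immunoglobulin A (IgA), which the epithelium carries into the lumen.

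Between 14749669 and 18744592 reads per library were counted on genes. Of 54532 annotated genes, 26776 (49.1%) had no count in any of the 7 libraries, and 12068 (22.1%) had at least 10 counts in every one. Levels are given as the deposited FPKM where genes are compared with each other, since FPKM divides by gene length. Summed lists and defensin genes are given as CPM. These are read counts brought to 1 common library size with TMM (trimmed mean of M values) factors. Other single genes are compared between libraries in FPKM unless CPM is named. FPKM carries the authors' factor for each library in place of TMM, so the order of libraries may differ from that in CPM. No library was a copy of another, since every pair differed by more than sampling noise (chi-square per degree of freedom of at least 18.0 over genes). The closest were WT 5 and WT 6, with an SD of 0.336 between their log2 levels across genes, and the farthest were WT 4 and WT 5, with 1.14. Ncor1, the floxed gene, had an FPKM of 10.3 ± 2.50 (SD, n = 7) and was read in every library. WT 4 held smooth muscle and neuronal RNA, WT 3 held the most mitochondrial and B cell RNA, and results that rest on them are also given without them where this moves the value by over 1.5 times. In bulk RNA, fewer cells of a type and less RNA per cell cannot be told apart.

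The most abundant nuclear transcripts were those of fat absorption. Fabp2, the intestinal fatty acid-binding protein, had the highest mean of all nuclear genes with an FPKM of 17508 ± 8268 (SD, n = 7), and its values ran from 6244 in WT 7 to 31264 in WT 2. Apoa1, an apolipoprotein of chylomicrons and HDL, followed with a mean FPKM of 13339, from 4916 in WT 7 to 32732 in WT 2. Fabp6, which binds bile acids inside ileal enterocytes, was the third with 5702 ± 5484 (SD, n = 7). Of the 25 genes with the highest mean FPKM, 10 were encoded by mitochondrial DNA, led by mt-Co1, a subunit of cytochrome c oxidase, with a mean of 21126. Reads of mitochondrially encoded genes may be shared with nuclear copies of the same sequence. The remaining genes of the 25 were made by several cell types. Zg16 and Tff3, secreted by goblet cells, had a mean FPKM of 2687 and 2497. Krt8, a keratin of simple epithelia, had 2305 ± 275 (SD, n = 7), and Igkc, the immunoglobulin kappa constant gene, had 2225. Reg3b, a secreted lectin that acts on bacteria, had 2288, Rbp2, which carries retinol, had 2165, and Anpep, a brush border peptidase, had 1980. The ordering moved with the measure, and 15 of the 25 were also among the 25 genes with the most counts.

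**Figure D1:**
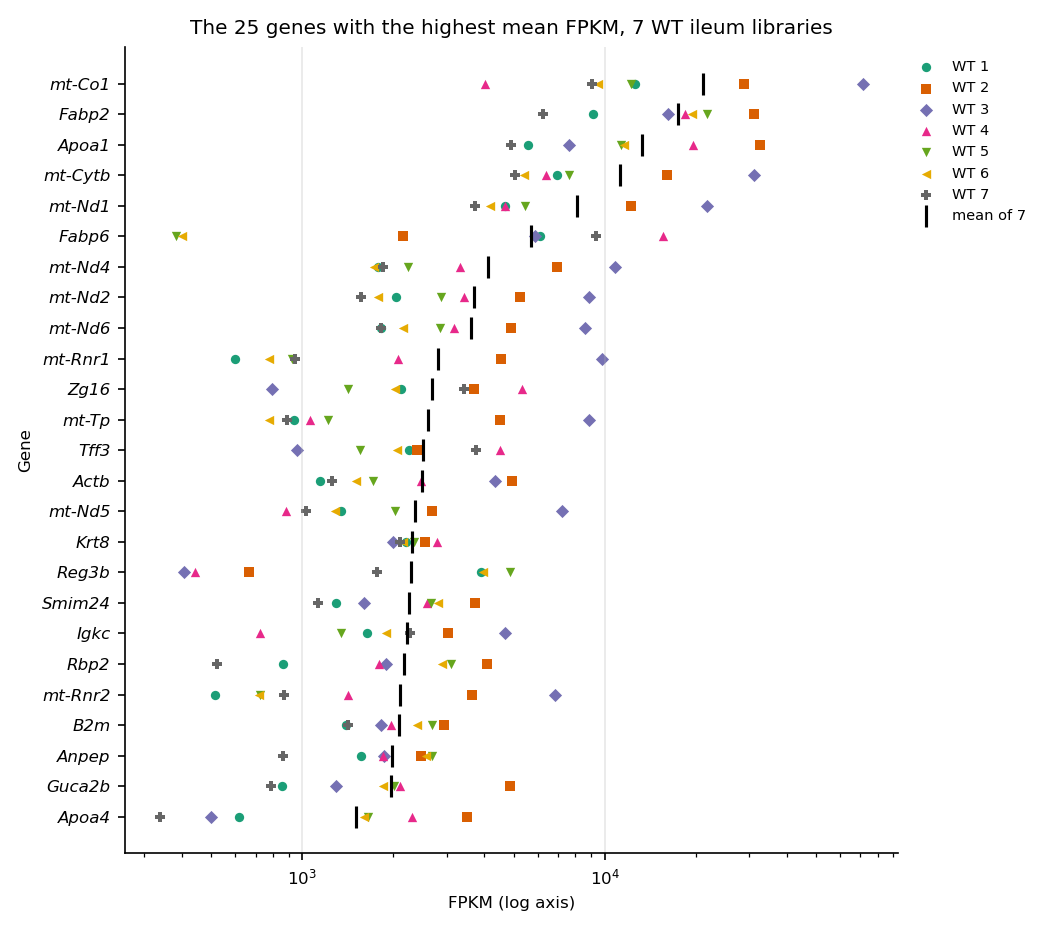
FPKM (log axis) of the 25 genes with the highest mean over the 7 WT libraries, with 1 symbol per library and a black bar at the mean. Krt8 stayed between 1995 and 2780, while Fabp6 ran from 383 in WT 5 to 15593 in WT 4, and WT 3 was highest for the mitochondrially encoded genes shown.

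Protein-coding genes took 97.6% ± 1.00 (SD, n = 7) of the counts. Of 22046 protein-coding genes in the table, 17389 had a count. Mitochondrial ribosomal RNA took 0.647% of the counts, processed pseudogenes 0.395%, immunoglobulin constant genes 0.356% and long intergenic RNAs 0.270%. Of 9497 processed pseudogenes, 2640 had a count, led by Rpl17-ps10 and Rpl17-ps3, copies of a ribosomal protein gene whose reads may be shared with their parent. Of 5559 long intergenic RNAs, 1876 had a count. Neat1, the RNA scaffold of nuclear paraspeckles, had a mean FPKM of 35.3 but ranged from 7.57 in WT 1 to 124 in WT 2. Tug1, another long noncoding RNA, was among the steadiest of all genes, with 7.39 ± 0.389 (SD, n = 7). On the scale of summed FPKM, which weights short genes more, protein-coding genes took 93.4%.

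Of 82 lists of genes sorted by function, 12 each took at least 1% of the counts, and lists may share genes. Mitochondrially encoded genes took 8.29%, chylomicron and apolipoprotein genes 2.97%, solute carriers 2.91% and cytosolic ribosomal proteins 2.86%. Genes of epithelial identity took 2.69%, brush border peptidases 2.39% and goblet cell genes 1.65%. The share of mitochondrially encoded genes was 23.9% in WT 3, 10.3% in WT 2 and 3.83% to 5.60% for the other 5. In WT 3, 233 genes made up 50% of the counts, against 644 in WT 7. All 21 mitochondrially encoded genes tested were highest in WT 3, as were 13.9% of all genes tested.

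Fat absorption was covered by genes of every step. Fabp1, a second fatty acid-binding protein, had a mean FPKM of 1423 and ranged from 259 in WT 7 to 2957 in WT 2. Cd36, a fatty acid receptor, had 16.9. Mogat2 and Dgat1, enzymes that rebuild triglycerides in the enterocyte, had 201 and 269.7. Apob, the structural protein of chylomicrons, had 336, and Mttp, which loads it with lipid, had 275. Summed over the list, chylomicron and apolipoprotein genes ran from 12682 CPM in WT 7 to 63437 in WT 2. WT 2 was the highest and WT 7 the lowest library for Fabp2, Apoa1, Fabp1, Apoa4, Rbp2 and Dgat1 alike. WT 2 was also the highest library for 20.6% of all genes tested. Summed over all genes, FPKM was likewise highest in WT 2, with 489585, and lowest in WT 7, with 268671. Npc1l1, through which cholesterol enters, had an FPKM of 153 ± 68.1 (SD, n = 7), and Abcg5 and Abcg8, which return sterols to the lumen, had 108 and 58.3. These 3 also had their highest value in WT 2 and their lowest in WT 7. Genes of cholesterol synthesis had another order, and 16 of 20 tested were highest in WT 1, as were 11.6% of all genes tested.

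The digestive enzymes of the brush border had high levels that varied with the library. Sis, the sucrase-isomaltase gene, had a mean FPKM of 498, and it was 1036 in WT 5 and 968 in WT 6 but 135 in WT 3. Mgam, which releases glucose from starch, had 366 and Treh, which splits trehalose, had 92.6, and both had their highest value in WT 5 and their lowest in WT 7. Slc5a1, the sodium-glucose cotransporter, had 542. Fth1, the heavy chain of ferritin, was abundant and steady, with an FPKM of 928 ± 62.1 (SD, n = 7) between 846 and 1001.

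Genes of bile acid recovery carried the ileal identity of the tissue. Bile acids enter through Slc10a2, are bound by Fabp6, leave through the paired carrier Slc51a and Slc51b, and act on Nr1h4, the bile acid receptor, under which the hormone gene Fgf15 is made. Fabp6 lies on chromosome 11 from 43596049 to 43601540, Slc51a on chromosome 16 from 32474504 to 32487879 and Slc51b on chromosome 9 from 65412714 to 65422955, all 3 protein coding. The windows of 250 bases before and 50 after their start sites are shown, from RefSeq on GRCm38.p6 and 5′ to 3′ on the strand of the gene, because these 3 genes had the highest levels of the bile acid list. They lie at chr11:43601513-43601812, chr16:32487830-32488129 and chr9:65422724-65423023, all on the minus strand. Capitals mark TATAAA in Fabp6 and AGGTCA, the half-site that many nuclear receptors bind, in Slc51a and Slc51b, each searched on both strands.
Fabp6: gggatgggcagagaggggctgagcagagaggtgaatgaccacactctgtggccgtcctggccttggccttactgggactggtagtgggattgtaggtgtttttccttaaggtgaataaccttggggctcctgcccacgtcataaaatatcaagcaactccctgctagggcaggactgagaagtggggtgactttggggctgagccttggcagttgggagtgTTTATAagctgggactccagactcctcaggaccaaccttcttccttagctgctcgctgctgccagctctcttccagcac
Slc51a: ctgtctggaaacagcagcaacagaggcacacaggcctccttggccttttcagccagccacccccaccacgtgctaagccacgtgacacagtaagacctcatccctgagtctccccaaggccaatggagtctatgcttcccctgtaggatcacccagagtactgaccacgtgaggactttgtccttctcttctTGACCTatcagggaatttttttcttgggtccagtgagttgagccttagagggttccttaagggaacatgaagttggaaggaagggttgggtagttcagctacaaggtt
Slc51b: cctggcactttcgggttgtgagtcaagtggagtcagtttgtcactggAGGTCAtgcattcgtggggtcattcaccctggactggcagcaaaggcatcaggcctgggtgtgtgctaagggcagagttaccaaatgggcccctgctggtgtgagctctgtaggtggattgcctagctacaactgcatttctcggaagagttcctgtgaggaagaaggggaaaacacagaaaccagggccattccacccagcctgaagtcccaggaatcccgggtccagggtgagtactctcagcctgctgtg
Of 32851 promoter windows of the same length, 16.3% hold AGGTCA and 13.6% hold TATAAA on either strand, so a match is a description and not a binding site.

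Fabp6 was the most variable gene of this group. Its FPKM was 6124 in WT 1, 2158 in WT 2, 5889 in WT 3, 15593 in WT 4, 383 in WT 5, 398 in WT 6 and 9368 in WT 7. WT 5 and WT 6 were thus far below the other 5. Slc51b was 237 ± 76.6 (SD, n = 7) on the same scale, from 136 in WT 6 to 349.5 in WT 4, and Slc51a had a mean of 192, from 122 in WT 2 to 247 in WT 4. The exporter genes therefore moved over a much narrower range than Fabp6. Slc10a2 had a mean FPKM of 53.4 and was highest in WT 1 with 137 and lowest in WT 6 with 9.52. Fgf15 had 24.3, from 4.69 in WT 6 to 46.4 in WT 4, and Nr1h4 had 27.9. WT 6 was the lowest library for Slc10a2, Fgf15 and Slc51b.

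Lct and Gata4, of the proximal small intestine list, were highest where Fabp6 was lowest. Lct, the lactase gene, had an FPKM of 53.2, 189, 44.5, 98.1, 203, 252 and 18.3 in WT 1 to WT 7. Gata4, a transcription factor of the duodenum and jejunum, had 4.81, 18.9, 9.42, 8.98, 22.8, 22.8 and 3.64 in the same order. WT 2, WT 5 and WT 6 were the highest for both, and WT 7 was the lowest. Other members of the lists differed from this. Slc40a1, the iron exporter, was low, with an FPKM of 2.50 in WT 1, 2.37 in WT 7 and 0.195 to 0.424 in WT 2, WT 5 and WT 6. Abcc2, a carrier counted with the bile acid genes, was highest in WT 5 and WT 6, with 42.5 and 38.1. The summed level of the ileal bile acid list ran from 1361 CPM in WT 6 to 10855 in WT 4, a 7.97-fold range, and that of the proximal list from 551 CPM in WT 7 to 2659 in WT 6, a 4.83-fold range. Across the 7 libraries the mean log2 levels of the 2 lists had a Pearson's r of -0.77 (exact two-sided permutation p = 0.0526, adjusted p = 0.105 over 16 pairs of lists) and a Spearman's rho of -0.71 (exact permutation p = 0.0881, adjusted p = 0.219). Without WT 1 and WT 6, the libraries farthest from the median of the ileal list, r was -0.82. The relation did not pass the adjusted threshold, and where along the ileum each mucosa was scraped is not stated. Markers of the colon gave no common signal. Hoxd13, Hoxd10 and Hoxb13 had no count in any library, and Car1, a carbonic anhydrase of the colon, had an FPKM of 9.49 in WT 3, 0.0387 in WT 6 and no count in the others. Retnlb was read in WT 3 alone, with an FPKM of 0.752.

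**Figure D2:**
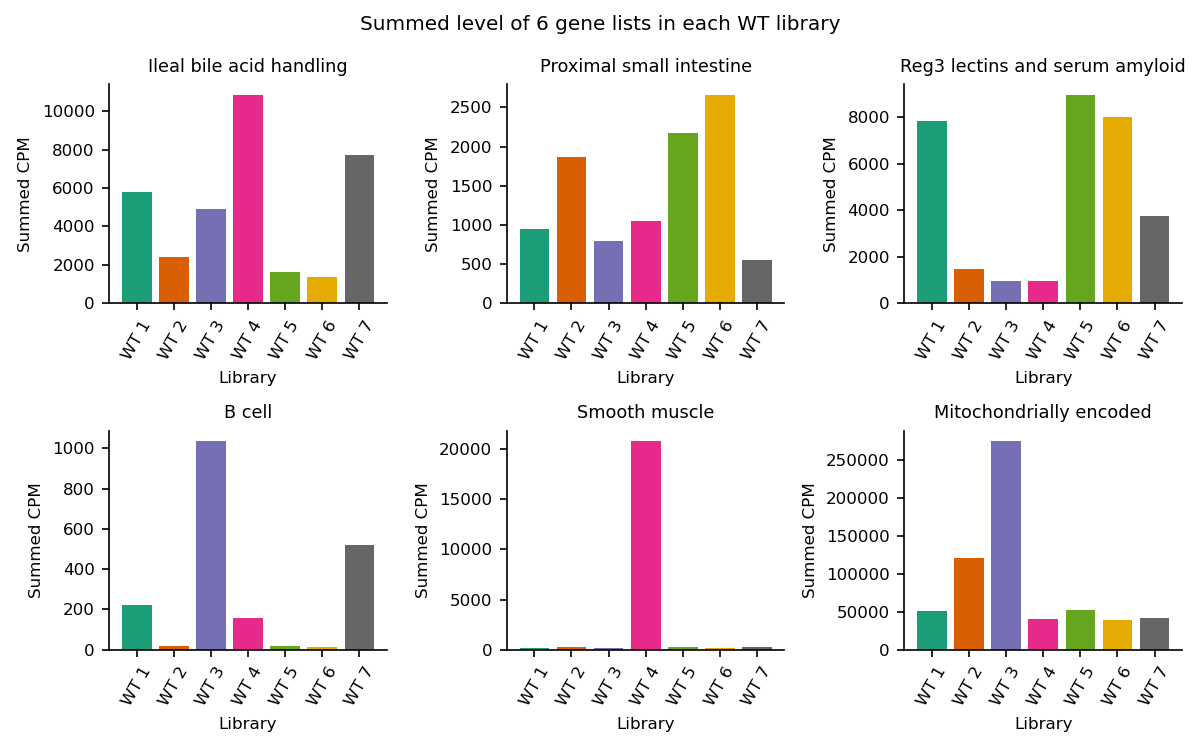
Summed CPM of 6 gene lists in each of the 7 WT libraries, with 1 bar per library, axes that start at 0 and a scale of its own for each panel. The ileal and proximal lists had 10855 and 1046 CPM in WT 4 but 1361 and 2659 in WT 6, and the smooth muscle list reached 20776 CPM in WT 4.

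Alpha defensins, the antimicrobial peptides that Paneth cells store in granules, differed between libraries in which members were read and not only in their amount. Those described here lie within 724 kb of chromosome 8, from 21025545 to 21750000. This stretch was drawn after the values were seen, from the start of Defa21 to the last alpha defensin gene. Many of its genes are near copies of each other, so reads may be divided among them in an uncertain way. The promoter windows of 3 members, from RefSeq on GRCm38.p6 and all on the plus strand, are shown because Defa21 and Defa20 were nearly unread in the libraries where Defa31 was highest. They lie at chr8:21025295-21025594 for Defa21, chr8:21509008-21509307 for Defa20 and chr8:21191323-21191622 for Defa31. Capitals mark TATAAA, searched on both strands.
Defa21: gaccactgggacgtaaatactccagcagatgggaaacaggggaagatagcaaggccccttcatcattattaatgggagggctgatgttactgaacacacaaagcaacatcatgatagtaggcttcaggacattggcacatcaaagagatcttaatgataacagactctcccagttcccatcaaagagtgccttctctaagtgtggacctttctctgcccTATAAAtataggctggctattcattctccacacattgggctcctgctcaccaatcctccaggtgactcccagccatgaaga
Defa20: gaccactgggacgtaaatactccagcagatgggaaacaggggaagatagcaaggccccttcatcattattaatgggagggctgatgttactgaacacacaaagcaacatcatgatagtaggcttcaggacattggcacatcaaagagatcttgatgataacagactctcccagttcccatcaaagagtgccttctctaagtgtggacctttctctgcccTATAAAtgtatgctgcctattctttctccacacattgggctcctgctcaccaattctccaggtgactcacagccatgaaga
Defa31: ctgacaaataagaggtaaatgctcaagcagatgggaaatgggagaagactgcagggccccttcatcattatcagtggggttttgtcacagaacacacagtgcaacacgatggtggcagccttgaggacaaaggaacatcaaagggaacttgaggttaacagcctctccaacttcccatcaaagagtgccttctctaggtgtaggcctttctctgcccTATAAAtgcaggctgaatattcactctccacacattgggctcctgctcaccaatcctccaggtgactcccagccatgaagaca
The window of Defa21 is identical over 300 bases to that of Defa22, and Defa20 matches it at 293 of 300 bases (97.7%). The window of Defa31 is identical over 300 bases to that of Defa23. TATAAA begins 31 bases before the start in Defa21, Defa22 and Defa20 and 33 bases before it in Defa31 and Defa23. Members with the same window can be set beside each other below, Defa21 beside Defa22 and Defa31 beside Defa23.

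Defa21 had 1034 CPM in WT 1, 399.7 in WT 2, 369 in WT 3, 1.34 in WT 4, 503 in WT 5, 0 in WT 6 and 582 in WT 7. The value in WT 4 rests on 24 counts, and WT 6 had 0 counts, which allows up to 3. Defa22 had 969, 377, 399.6, 2.17, 528, 0.0553 and 616 CPM in the same order, from 39 counts in WT 4 and 1 in WT 6. Both genes were thus read strongly in 5 libraries and hardly at all in the same 2. Defa20 gave 193, 76.8, 93.6, 0.557, 91.7, 0 and 97.2 CPM, and Defa2 gave 123, 96.3, 19.9, 0, 23.6, 0 and 68.9. Of 39 alpha defensin genes, 33 had a count and 20 had a mean of at least 1 CPM. In 14 of these 20, WT 4 and WT 6 were both below every other library, against 1.84% of all 14100 genes at that level. Neighbours in the same stretch that are not named as defensins had that order in 3 cases, Gm14851, Gm7849 and AY761184. The other of these 4, Gm15292, did not, with 7.24 CPM in WT 4 and 16.1 in WT 6, the second highest value. Of the 15 genes read at that level within 1 Mb after the stretch, 1 had WT 4 and WT 6 both at one end. The side before the stretch was not examined.

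Other members did not follow. Defa31 had 0.973, 1.75, 1.25, 15.0, 1.29, 15.9 and 1.06 CPM in WT 1 to WT 7, so WT 4 and WT 6 were the highest, a pattern that 1.67% of all genes had. Defa23, whose window is that of Defa31, had 39.1, 18.6, 14.0, 5.57, 17.5, 15.7 and 20.9 CPM. The pair thus had opposite values in WT 4. Defa35 had 45.9 CPM in WT 6, 8.47 in WT 4, and 2.89 to 10.4 elsewhere. Defa24 was read in every library, from 189 CPM in WT 4 to 1461 in WT 1. Of the summed defensin CPM, Defa21 and Defa22 made up 40.3%, 38.4%, 43.4%, 0.954%, 40.2%, 0.00622% and 39.9% in WT 1 to WT 7. Defa17, Defa31 and Defa35 together made up 17.3% in WT 4 and 15.5% in WT 6, and between 1.23% and 1.73% in the other 5. These shares are taken within a library. Lyz1, the Paneth cell lysozyme, had an FPKM of 196 in WT 4, below all others, but 886 in WT 6, within the range of 548 to 1908 of the other 5. Mptx2, also of Paneth cells, was highest in WT 6 with an FPKM of 68.4. The libraries were read by their labels alone, WT 4 and WT 6 were singled out after the values were seen, and what sets these 2 apart was not tested.

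**Figure D3:**
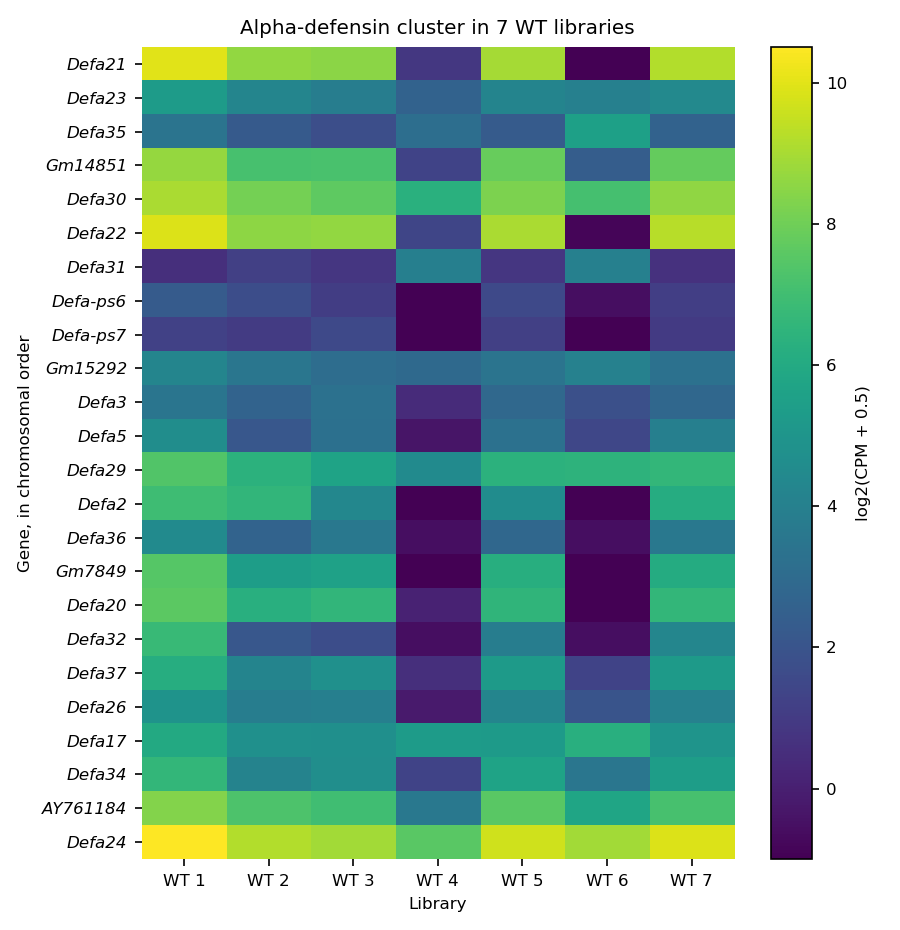
Level, as log2(CPM + 0.5), of 24 genes of the alpha-defensin stretch on chromosome 8 in the 7 WT libraries, in chromosomal order from top to bottom. Dark cells in WT 4 and WT 6 mark genes hardly read there, such as Defa21, Defa22, Defa2 and Defa20, while Defa31 is brighter in these 2 libraries than in the other 5.

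The main secreted products of goblet cells were abundant in all libraries, while Spdef, a transcription factor of these cells, had a mean FPKM of 8.48. Zg16 ran from an FPKM of 793 in WT 3 to 5333 in WT 4, Tff3 from 961 in WT 3 to 4505 in WT 4, and Muc2, the main secreted mucin, from 53.4 in WT 3 to 275 in WT 7, with a mean of 150.3 ± 67.6 (SD, n = 7). WT 3 was the lowest library for Zg16, Tff3, Guca2a, Clca1, Fcgbp, Agr2 and Muc2. Hormone genes were read at a lower level. Sct, which encodes secretin, had a mean FPKM of 144, Nts 116, Pyy, a hormone of the distal gut that curbs appetite, 94.7, and Gip, an incretin of the proximal gut, 60.7. WT 2 was the highest library for Sct, Nts and Gip, and WT 4 for Pyy.

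Reg3b and Reg3g, lectins that act on bacteria, were among the most variable of the abundant genes, with a biological coefficient of variation (BCV, the relative SD between libraries once counting noise is taken out) of 0.792 and 0.762. Reg3b had an FPKM of 3905, 665, 407, 441, 4869, 3960 and 1766 in WT 1 to WT 7, and Reg3g, its close paralog, had 875, 196, 129, 91.1, 1027, 1104 and 371. WT 1, WT 5 and WT 6 were high for both, WT 7 was intermediate and WT 2, WT 3 and WT 4 were low. Reg3a had a mean of 116, its highest value in WT 2 and a lower BCV, 0.3896. Summed over the list of Reg3 lectins and serum amyloid genes the range was 9.35-fold, from 957 CPM in WT 3 to 8954 in WT 5. MHC class II genes, which present antigen, fell into steady and variable members. Cd74, the invariant chain, had an FPKM of 1487 ± 227 (SD, n = 7) between 1204 and 1864, and H2-Ab1 had 478 ± 87.3. H2-DMb2 ran from 0.331 in WT 2 to 17.7 in WT 7, H2-Ob from 0.153 in WT 6 to 20.9 in WT 3, and H2-Oa from 0.196 in WT 5 to 8.07 in WT 3. These 3 were at most 0.622 in WT 2, WT 5 and WT 6, the libraries with the least B cell RNA. Isg15, a gene induced by interferon, had 41.5 ± 14.1 (SD, n = 7).

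B cell genes differed widely between the libraries. Cd79a, a part of the B cell receptor, had an FPKM of 21.0, 3.58, 119, 15.9, 3.08, 2.48 and 48.8 in WT 1 to WT 7. WT 3 and WT 7 were the highest, and WT 2, WT 5 and WT 6 were the lowest. The summed B cell list ran from 11.4 CPM in WT 6 to 1034 in WT 3, a 90.8-fold range. Plasma cell genes did not share 1 order. Mzb1, a chaperone of antibody assembly, had an FPKM of 50.6 in WT 3, 26.7 in WT 7 and 5.37 to 11.5 elsewhere, so it ranked WT 3 and WT 7 first as Cd79a did. Jchain, which joins IgA dimers, had an FPKM between 92.4 and 172 in 6 libraries and 23.1 in WT 4. Igha, the IgA heavy chain gene, ran from 279 in WT 4 to 709 in WT 7, and Pigr, which carries IgA across the epithelium, from 171 in WT 4 to 876 in WT 3.

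Igha took 84.3% ± 22.1 (SD, n = 7) of the counts on heavy chain constant genes. Its share was 89.7%, 99.1%, 37.1%, 86.7%, 98.3%, 99.3% and 79.9% in WT 1 to WT 7. WT 3 was far from the other 6, with 30.9% of its counts on Ighg2b and 16.8% on Ighm, and WT 7 had 8.53% on Ighm. Reads of heavy chain genes can be shared between similar constant regions. Counts on variable genes of the heavy chain numbered 4899, 226, 827, 114, 2104, 2836 and 6466. The library with the most B cell RNA, WT 3, was therefore not the one with the most reads on variable genes. Among T cell and intraepithelial lymphocyte genes, Ccl5 had a mean FPKM of 51.4 and Gzma, a granzyme, 38.2. Lyz2, of macrophages, had 122 in WT 7, 102 in WT 3 and between 8.02 and 47.6 in the other 5.

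**Figure D4:**
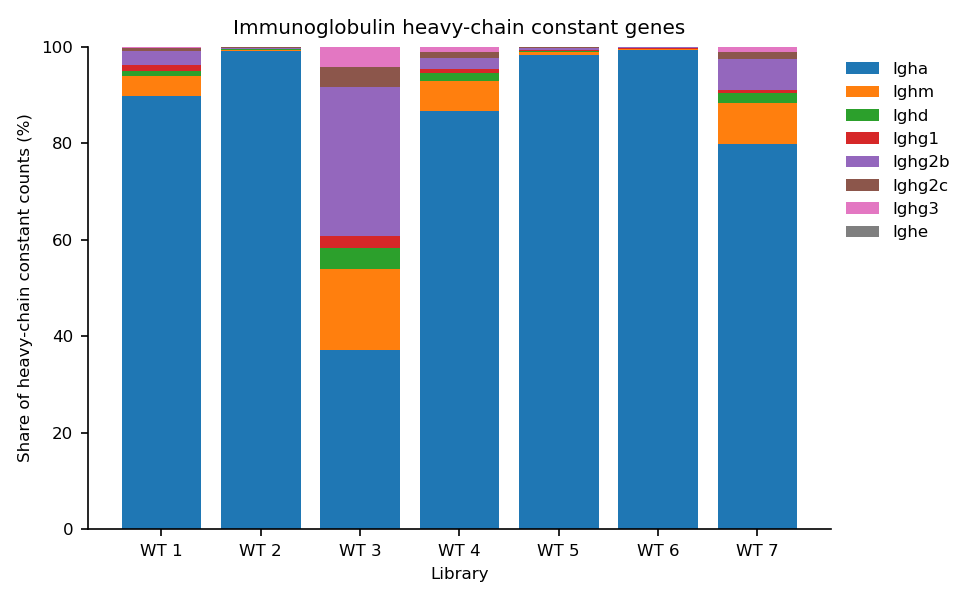
Share (%) of the counts on immunoglobulin heavy chain constant genes that fell on each gene, stacked to 100% for each of the 7 WT libraries. Igha took at least 79.9% in 6 libraries and 37.1% in WT 3, where Ighg2b took 30.9%.

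Muscle and nerve genes were high in 1 library. Acta2, smooth muscle actin, had an FPKM of 1459 in WT 4 and between 0.405 and 8.29 in the other 6. Actg2, the enteric form of that actin, had 1105 in WT 4 and at most 4.82 elsewhere, and Des, which encodes desmin, had 767 and at most 5.39. Summed over the smooth muscle list WT 4 reached 20776 CPM and the others 201 to 261. Most of the level in those 6 came from Mylk, which encodes myosin light chain kinase and had an FPKM of 9.31 to 17.0 there. Uchl1, of enteric neurons, had 54.0 in WT 4 and at most 0.802 elsewhere. The list of fibroblast and matrix genes was also highest in WT 4, with 1388 CPM against 138 to 259. Part of the level in the others came from Fbln1, which did not follow WT 4. Its FPKM was 48.8 in WT 5, 47.7 in WT 4 and 8.33 in WT 7, its lowest value. In WT 4 the epithelial genes were still high, with an FPKM of 2780 for Krt8, its highest value. The part that the muscle RNA of WT 4 has in the other values of that library was not tested.

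The spread between mice was measured as the BCV. Its median over the 12053 genes with enough counts was 0.359, and 5% of genes were under 0.244 and 5% above 0.704. In all, 2120 genes (17.6%) had a BCV of at least 0.5. Of these, 682 had their highest level in WT 4 and 427 in WT 3. Without these 2 libraries, 1302 of 12479 genes passed. This filter asks for counts in nearly every library, which leaves out genes that are read in some mice alone. Among genes with a mean of at least 1 CPM instead, 5568 of 14101 passed.

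Several lists of cells outside the epithelium had the highest median BCV of their genes tested, in part through 1 library. It was 1.91 for smooth muscle and 0.764 without WT 4, 1.07 for fibroblasts and matrix and 0.595 without WT 4, and 1.03 for immunoglobulin constant genes and 0.732 without WT 3. B cells had 1.07 over 3 genes tested, and immunoglobulin variable genes 0.751. Other such lists were lower, with 0.527 for macrophages and dendritic cells, 0.519 for plasma cells and 0.426 for T cells and intraepithelial lymphocytes. Hox genes, which mark position along the gut, had 1.03 over 3 genes tested. Among lists of the epithelium, alpha defensins had 0.585 over 10 genes tested and genes of the proximal small intestine 0.554. Disaccharidases had 0.533, ileal bile acid genes 0.498 and Paneth cell genes 0.489. The filter left out Defa21, Defa22, Defa26 and Defa5, which were low in WT 4 and WT 6, so the defensin median does not cover them. Among genes with a mean of at least 1 CPM it was 0.989, against 0.430 for all genes. At the other end, the corepressor list had 0.276, with 0 of 11 genes at 0.5 or above. It is wider than the complex of Ncor1, since it also holds Rcor1, Kdm1a and Sin3a. MHC class II had 0.285, with 0 of 7. The filter took out H2-DMb2, H2-Ob and H2-Oa, the variable members of that list, so this median covers the steady ones alone. Genes of mitochondrial fatty acid oxidation had 0.304, with 1 of 18, the tricarboxylic cycle 0.332, with 0 of 18, and genes of epithelial identity 0.317, with 2 of 20. These counts stand beside the 17.6% of all genes. Of 77 lists with a value, 57 had a median above that of all genes.

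**Figure D5:**
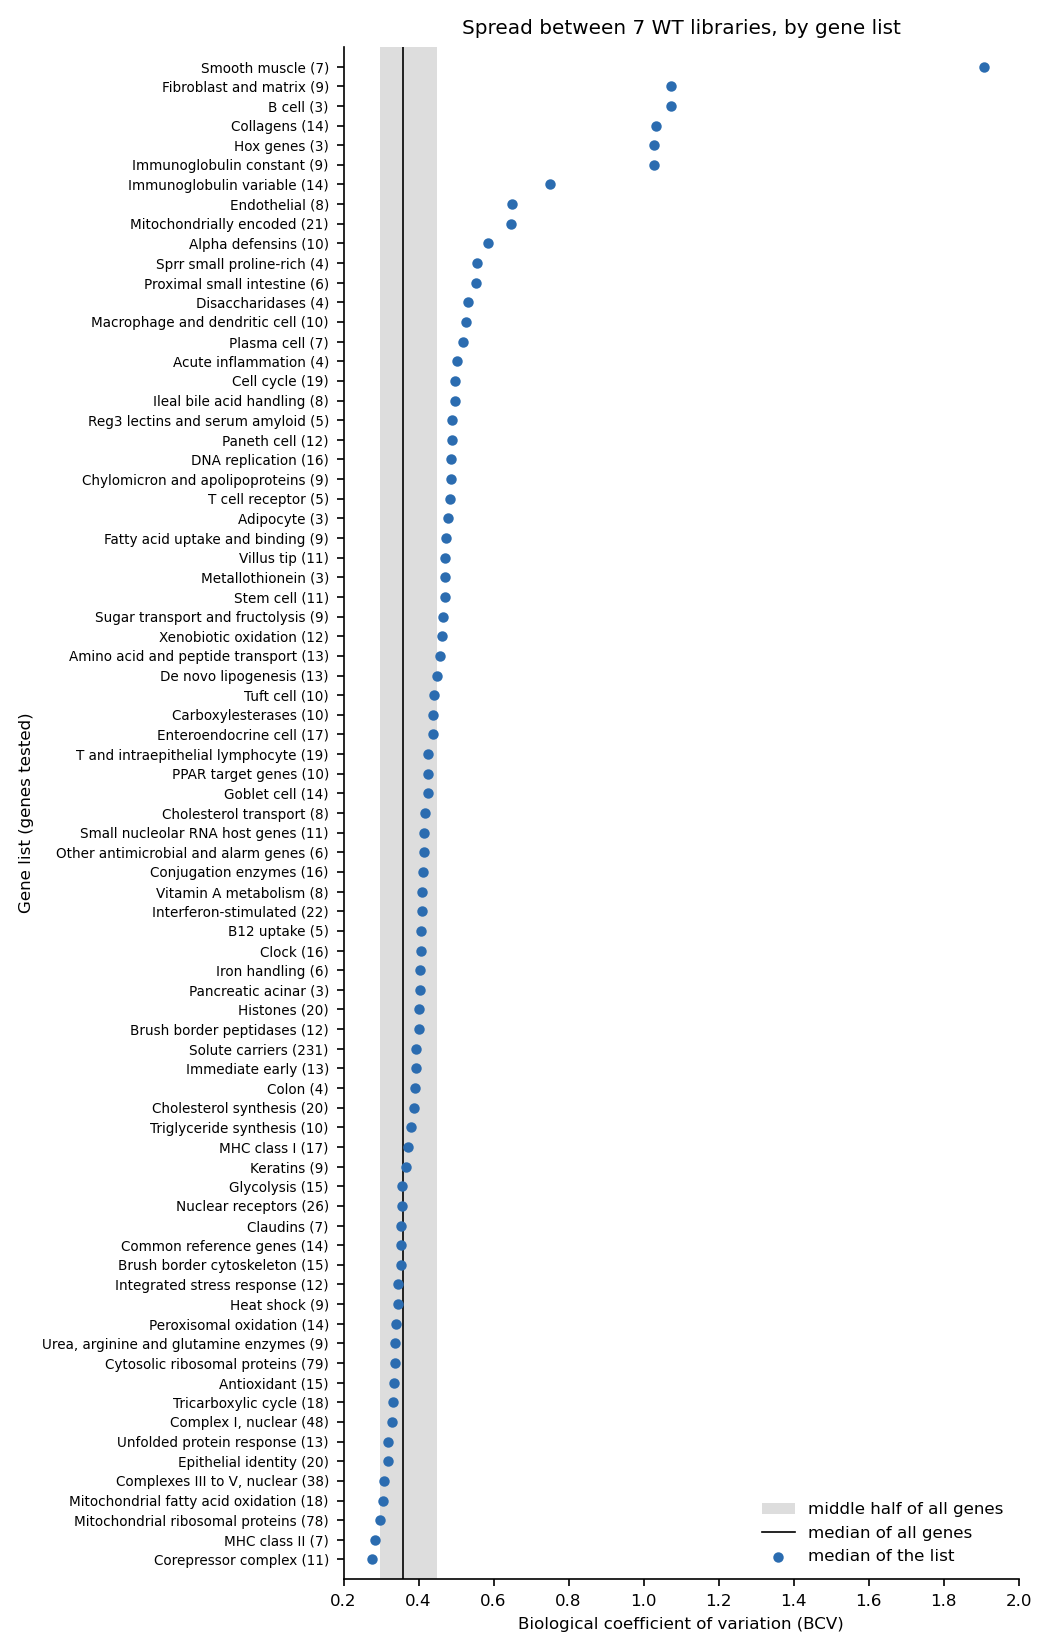
Median BCV of each gene list over the 7 WT libraries, with the number of its genes tested in parentheses, the median of all genes as a line and the range between their 25% and 75% quantiles in grey. Smooth muscle lies at 1.91 and the corepressor list at 0.276.

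Genes that are often used as a reference were not all steady. Gapdh, a glycolytic enzyme with many pseudogenes that can take its reads, had an FPKM of 1.09, 35.7, 36.2, 2.17, 7.60, 1.73 and 24.5 in WT 1 to WT 7. Its BCV was 1.01. Actb, cytoskeletal actin, ran from 1141 in WT 1 to 4942 in WT 2. Chtop, an mRNA export factor, stayed at 20.2 ± 0.477 (SD, n = 7), and Tug1 had the lowest BCV of the genes with a mean of at least 10 CPM, 0.209.

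Levels of nuclear receptors differed widely, and Esrra, Nr1i2, Vdr and Nr1h3 had the highest means of that list. Esrra, a regulator of mitochondrial genes, had a mean FPKM of 164, from 101 in WT 7 to 331 in WT 2. Nr1i2, the xenobiotic receptor PXR, had 50.8, Vdr, the vitamin D receptor, 47.5 ± 10.3 (SD, n = 7), and Nr1h3, the oxysterol receptor LXR alpha, 31.9. Of the PPAR receptors, Ppard had 11.3, Ppara 5.12 and Pparg 1.67. Nr0b1 and Nr2e1, also of the list, had no count in any library. Hnf4g, a factor of enterocytes, had 82.5, 9.22, 49.6, 8.89, 109, 139 and 26.1 in WT 1 to WT 7, so WT 2 and WT 4 were the lowest. Partners of Ncor1 had levels near its own. Hdac3, its histone deacetylase, had 12.8 ± 2.27 (SD, n = 7), and Gps2, another subunit, had 21.2 ± 10.2.

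Genes of energy metabolism had moderate and fairly even levels. Of the tricarboxylic cycle, Mdh2, a malate dehydrogenase, had a mean FPKM of 225 and Cs, citrate synthase, 153 ± 47.5 (SD, n = 7). Of mitochondrial fatty acid oxidation, Hadh had 96.8 and Acaa2, the thiolase of its last step, 83.2 ± 10.8 (SD, n = 7), from 63.1 in WT 3 to 97.9 in WT 4. The nuclear subunits of complexes III to V were steady as a group, with a 1.30-fold range of their summed CPM, and Cox6a1, of cytochrome c oxidase, had an FPKM of 689.7, from 441 in WT 3 to 1102 in WT 4. Of 48 nuclear genes of complex I tested, 37 were highest in WT 4, as were 19.3% of all genes tested. The mitochondrially encoded genes and the nuclear genes of complex I thus peaked in different libraries.

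Among genes that PPAR receptors control, Fabp1 and Creb3l3, a factor of lipid transport, were highest in WT 2 and lowest in WT 7, with a mean FPKM of 191 for Creb3l3. Ucp2, a carrier of the mitochondrial inner membrane, was steady at 70.3 ± 7.35 (SD, n = 7). Of lipid synthesis genes, Scd2, a fatty acid desaturase, ran from 2.52 in WT 2 to 73.2 in WT 1, and Fads2, another desaturase, also had its lowest value in WT 2 and its highest, 26.2, in WT 1. Srebf1, the factor that drives this pathway, moved little, with 15.1 ± 2.82 (SD, n = 7). Drug-metabolizing enzymes were abundant. Cyp4f14 had a mean FPKM of 573, Cyp3a13 202.5 and Ces2e, a carboxylesterase, 356. WT 5 and WT 6 had the highest values of all 3. The summed list of xenobiotic oxidation had a 3.23-fold range, with its lowest value in WT 3.

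Proliferation genes were low beside those of mature enterocytes. Mki67, a marker of dividing cells, had an FPKM of 7.29 ± 2.49 (SD, n = 7), Pcna, the clamp of DNA polymerases, 22.4 ± 5.36 and Olfm4, of crypt stem cells, 34.1 ± 16.7. Mki67 was lowest in WT 2 with 4.30 and highest in WT 1 with 10.6. Epithelial markers were high throughout. Epcam had an FPKM of 991 ± 215 (SD, n = 7), from 686 in WT 3 to 1270 in WT 6, and Vil1, which bundles actin in microvilli, ran from 454 in WT 7 to 1294 in WT 2. Krt20, a keratin of mature cells, had 1455 ± 507 (SD, n = 7). Tight junctions were represented by Cldn7 with a mean of 592, Cldn3 with 367 and Cldn15 with 204.

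Clock genes and genes of acute response varied with the library, and the hour at which each mouse was killed is not stated in the sources used here. Nr1d1, a repressor of the clock, had an FPKM of 8.11 in WT 7 and 33.9 in WT 6, and Dbp, another output of the clock, 6.71 in WT 7 and 41.1 in WT 4. Fos, an immediate early gene, had 24.7, 151, 67.5, 56.3, 81.2, 43.8 and 23.1 in WT 1 to WT 7. WT 2 was the highest for Fos, Junb and Ier2. Hspa8, a heat shock protein that is always made, had 182 ± 50.9 (SD, n = 7), with its highest value in WT 4.

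Among 16 pairs of lists compared across the 7 libraries, 2 passed an adjusted p under 0.05. Genes of the cell cycle and of DNA replication moved together (Pearson's r 0.96, exact two-sided permutation p = 3.97e-04, adjusted p = 0.00635, Spearman's rho 0.96, exact p = 0.00278, adjusted p = 0.0222, and r 0.92 without WT 2 and WT 4). Their levels were highest in WT 1, where the cell cycle list summed to 640.0 CPM, and lowest in WT 2, with 202. The other pair was smooth muscle with fibroblasts and matrix (r 0.97, exact permutation p = 0.00258, adjusted p = 0.0206, rho 0.96, exact p = 0.00278, adjusted p = 0.0222). That value rests in part on WT 4, and r was 0.76 without WT 4 and WT 5. Principal components were also taken, of the 1000 genes of highest BCV. These genes were chosen by their spread in the same 7 libraries, so the components describe that spread and are no separate test of it. The first held 49.4% of the variance and set WT 4 apart, with a score of 57.9 against -31.2 for WT 5 and -29.1 for WT 6. Without WT 4 the first component of the other 6 libraries held 55.9%. The second held 26.0% and had WT 3 and WT 7 at one end, with 27.1 and 25.3, and WT 4 and WT 2 at the other.

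Levels also moved with the base composition of the transcript. For each 10 percentage points of GC content, the log2 level relative to the 7-library mean changed by -0.18, 0.20, 0.14, 0.25, -0.21, -0.18 and -0.02 in WT 1 to WT 7, over 12024 genes. WT 2, WT 3 and WT 4 had more of the genes rich in G and C, and WT 1, WT 5 and WT 6 fewer. The longest transcript of Reg3b is 46.2% G and C, that of Sis 40.5%, that of Lct 52.9% and that of Fabp6 52.6%. Reg3b was high in the 3 libraries with the most negative GC slopes and low in those with positive ones. Slopes on log2 length differed too, with 0.039, -0.106, -0.054, -0.091, 0.079, 0.099 and -0.016 in WT 1 to WT 7. The part of base composition or length in these values was not tested.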

How the data were processed

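RNA of the ileum mucosa of 7 WT mice on the HFD was sequenced. Per the labels, the submitters' processing notes name HISAT2 2.0.5, featureCounts 1.5.0-p3, DESeq2 1.16.1 and mm10. Strandedness is not given in the sources used here. The authors deposited raw counts, whole numbers of reads per gene. The deposited FPKM are the authors' values, and each equals the count per kilobase times 1 factor per library, set over all 14 libraries. FPKM therefore summed to between 268671 and 489585. Of the gene identifiers, 54495 are in GENCODE M21 (GRCm38).

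Genes were filtered with filterByExpr, scaled with TMM, and their dispersion was estimated with an intercept alone in edgeR 4.0.16 (R 4.3.3). The BCV is the square root of the tagwise dispersion, which is drawn toward the trend of genes of like abundance. A list score is the mean log2 CPM of its genes, with a prior count of 2. Correlations were tested by exact permutation in scipy 1.17.1, adjusted by the Benjamini-Hochberg method over 16 pairs. The method was tested on simulated counts. GC content is that of the longest GENCODE transcript. Promoter windows came from a RefSeq table, which held 7 of the 9 bile acid genes.

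Genes named are the 25 of highest mean FPKM, the 25 of highest and 10 of lowest BCV among those with a mean of at least 10 CPM, the 3 with the most counts of each biotype, genes read at 10 CPM or more in 1 library and under 0.1 in another, list members by level, spread or role, and Ncor1. The genes given with GC content and those with 2 levels were chosen after their values were seen. The members and the lists were chosen with earlier results of these data known. Alternatives were other filters, RLE scaling, DESeq2 1.42.0 dispersions, FPKM in place of counts, leaving out mitochondrially encoded genes, and leaving out each library. The labels give no batch. At 100 CPM, sampling noise was 2.10% to 2.79% per library. Results for some single genes are left out.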

Additional observations from a re-analysis of the deposited data

Results flagged for a closer look

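Measures of 108 kinds, such as the mean level of a list, were examined for 1 library far from the other 6, by its gap to the nearest as a share of the range. This test marks about 1 in 20 by chance, about 5 here, and 5 were marked. WT 4 stood apart for the smooth muscle list (highest, gap 0.717 of the range), for fibroblasts and matrix (highest, 0.601) and for other antimicrobial and alarm genes (lowest, 0.680). WT 3 stood apart for the share of mitochondrially encoded genes (highest, 0.676). WT 2 stood apart for the corepressor list (lowest, 0.732). Of the 5, 3 fell on WT 4.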

How the results depend on the processing

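No paired analysis was possible because 1 genotype is described and no groups were compared. The number of genes with a BCV of at least 0.5 depended on the filter and the measure. It was 19515 of 27756 without a filter, 5568 of 14101 with a mean of at least 1 CPM, and 1302 of 12479 with WT 3 and WT 4 left out together, where the last 2 settings were chosen after seeing the data. With FPKM in place of counts, 17642 of 27756 genes had a CV that high without a filter, and 346 and 827 of 12053 had an SD of at least 1 in log2(FPKM + 1) and log2(FPKM + 0.1). Without a filter, 19 of 82 lists had a median above that of all genes, against 57 of 77. By share of counts 15 of the 25 most abundant genes were retained, and by summed FPKM protein-coding genes took 93.40%. The pairs of lists that passed numbered 5 with log2(FPKM + 1), and 1 to 4 with 1 library left out, with 1 when WT 1, WT 3, WT 4 or WT 7 was left out and 4 when WT 5 was. The rule for genes with 2 levels, itself chosen after seeing the data, gave 10 genes with a pseudocount of 1, 53 with 0.1 and 114 with a gap of 2.

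Some correlations changed sign. Mitochondrial fatty acid oxidation with PPAR target genes (r -0.06) became 0.01585 with RLE scaling, 0.08554 with log2(FPKM + 1) and -0.3494 to 0.3545 with 1 library left out. Mitochondrially encoded genes with complex I became 0.009673, 0.04386 and -0.1524 to 0.4351. With 1 library left out, brush border peptidases with the cell cycle (r -0.05) ran from -0.2383 to 0.3454, goblet cell with Reg3 genes (r 0.25) from -0.4882, without WT 3, to 0.4388, and smooth muscle with enteric neurons (r 0.47) from -0.3008, without WT 4, to 0.8047. The cause was not tested. The other 72 alternatives of the summary values stayed within 1.5 times or 1 SD of the value reported. With 7 libraries of 1 mouse each, a gene low in some mice is measured from few counts.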

Other observations

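Some genes had 2 separate levels among the 7 mice, with at least 2 libraries on each side and a gap of 3 or more in log2(CPM + 0.5). There were 19 of 12371, by a rule made after the values were seen. Of these, 7 were high in WT 1, WT 2, WT 3, WT 5 and WT 7: Defa21, Gm14851, Defa22, Defa2, Defa36, Gm7849 and Defa20. All 7 lie on chromosome 8, from 21025545 to 21510237. The defensin stretch was drawn to start at the first of them, so their place in it was fixed by that choice.

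Gm42031, a long intergenic RNA on chromosome 8 from 85125872 to 85132289, had 0.243, 0.841, 183.5, 199.0, 0.176, 159.8 and 0.574 CPM in WT 1 to WT 7. It was thus read in WT 3, WT 4 and WT 6 and hardly at all in the other 4. Apol10c-ps, a pseudogene, had 31.2, 1.75, 22.5, 1.504, 76.0, 62.5 and 27.8 CPM and was low in WT 2 and WT 4. In all, 294 genes had at least 10 CPM in 1 library and under 0.1 in another, and 272 of these were protein coding.

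The most common heavy chain variable gene was Ighv1-26 in WT 3, WT 5, WT 6 and WT 7, while Ighv6-3 was the first in WT 1. B4galnt2, a glycosyltransferase of the gut surface, had an FPKM of 139.7, 12.2, 24.2, 34.6, 150.4, 162 and 79.9 in WT 1 to WT 7.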
